A study of Mus musculus with 8 samples.

Results

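The regulators of G protein signalling (RGS) are a family of proteins named for the domain they share. Their 10 genes described here are Rgs2, Rgs3, Rgs4, Rgs5, Rgs7, Rgs10, Rgs12, Rgs14, Rgs16 and Rgs17, taken by symbol from the 55353 rows of the deposited count table. A further 11 RGS genes stood in the same table and are given as background. The libraries were made from cultured smooth muscle cells of the mouse aorta of 4 genotypes, E12 wild type (WT), E12 knockout (KO), E47 WT and E47 KO, with 2 libraries for each. E12 and E47 are splice products of Tcf3, a gene for basic helix-loop-helix transcription factors that bind E-boxes. The cells had been frozen, were revived in culture dishes and were lysed in Trizol, with no other treatment named. The sources used here do not give how the alleles were made, the strain, sex or age of the mice, or how the E12 WT and E47 WT cells relate to each other. The 2 libraries of a genotype are called independent extractions in the design text, and nothing says that they came from separate animals, so p-values measure only the spread between extractions.

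RGS proteins speed up the hydrolysis of GTP by the alpha subunits of heterotrimeric G proteins and so shorten the signal that a receptor starts. The R4 subfamily (here Rgs2, Rgs3, Rgs4, Rgs5 and Rgs16) acts on Gi and Gq alpha subunits. The R12 subfamily (Rgs10, Rgs12 and Rgs14) acts mainly on Gi, the R7 subfamily (Rgs7) works in a complex with the beta subunit Gnb5, and Rgs17 belongs to the RZ subfamily, which is active on Gz and other Gi proteins. In blood vessels these proteins limit contraction driven by angiotensin, endothelin, noradrenaline and sphingosine 1-phosphate, and Rgs5 is a widely used marker of pericytes and arterial smooth muscle.

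The libraries held between 13909230 and 27517374 counts, and a limit of 3 counts corresponded to between 0.117 and 0.224 CPM in a single library, CPM being the count scaled to the library total. Replicates of a genotype correlated at r between 0.992 and 0.995 across 13992 genes, which are not independent replicates. Tcf3, counted without separating E12 from E47, was higher in both knockouts than in their wild types, by 0.41 and 0.44 on the log2 scale, so its gene count does not check the labels. Acta2, the smooth muscle actin, averaged between 1638 and 3566 CPM in the 4 genotypes. The E47 WT libraries stood apart by their endothelial markers. The 10 endothelial markers summed to between 657 and 720 CPM there, against 10.9 to 12.4 in E12 WT, 5.79 to 6.25 in E12 KO and 4.68 to 7.28 in E47 KO. Of the 9 endothelial markers tested between the wild types, 8 were lower in E12 WT and 1, Kdr, was higher in E12 WT. Pecam1 averaged 202 CPM and Cdh5 170 CPM in E47 WT, while Cldn5 was at 0 in all 8 libraries. Every comparison with E47 WT therefore also compares libraries with and without these transcripts, and their part in the results below was not tested. In bulk RNA, fewer cells of a type and less RNA per cell cannot be told apart.

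**Figure D1:**
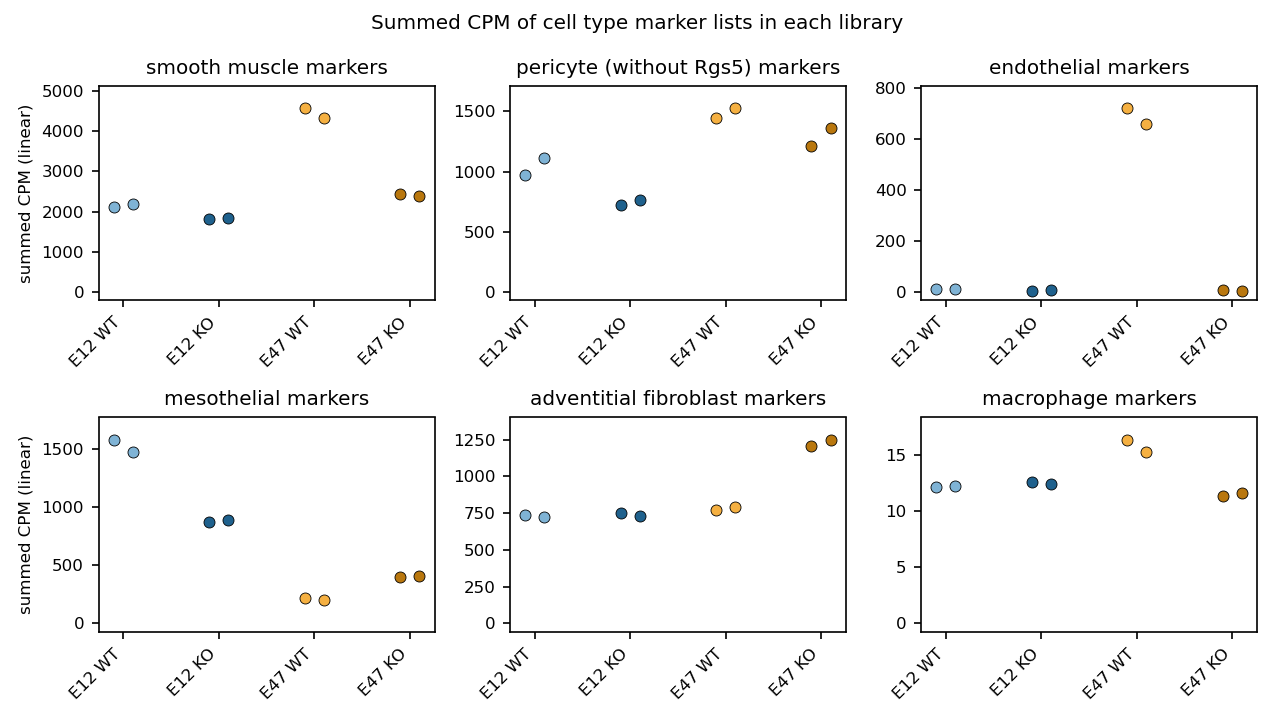
Summed CPM (linear axis, TMM-scaled library sizes) of 6 lists of cell type markers in each of the 8 libraries, 1 point per library, by genotype. The endothelial sum is between 657 and 720 CPM in both E47 WT libraries and at most 12.4 CPM in the others, and the mesothelial sum is between 1474 and 1584 CPM in E12 WT and between 205 and 222 CPM in E47 WT.

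Rgs5, Rgs4 and Rgs16, all of the R4 subfamily, differed most between the E12 and the E47 cells. Rgs5 and Rgs4 were far higher in both E47 genotypes than in both E12 genotypes, whereas Rgs16 was high in E47 WT alone. Rgs17 fell in the E12 KO and rose in the E47 KO. Rgs10 rose in both knockouts and Rgs3 fell in both, each by more in the E47 KO. The count of Rgs12 was nearly level, Rgs2 was low, with at most 28 counts in a library, Rgs7 had 3 counts in all and Rgs14 had none.

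**Figure D2:**
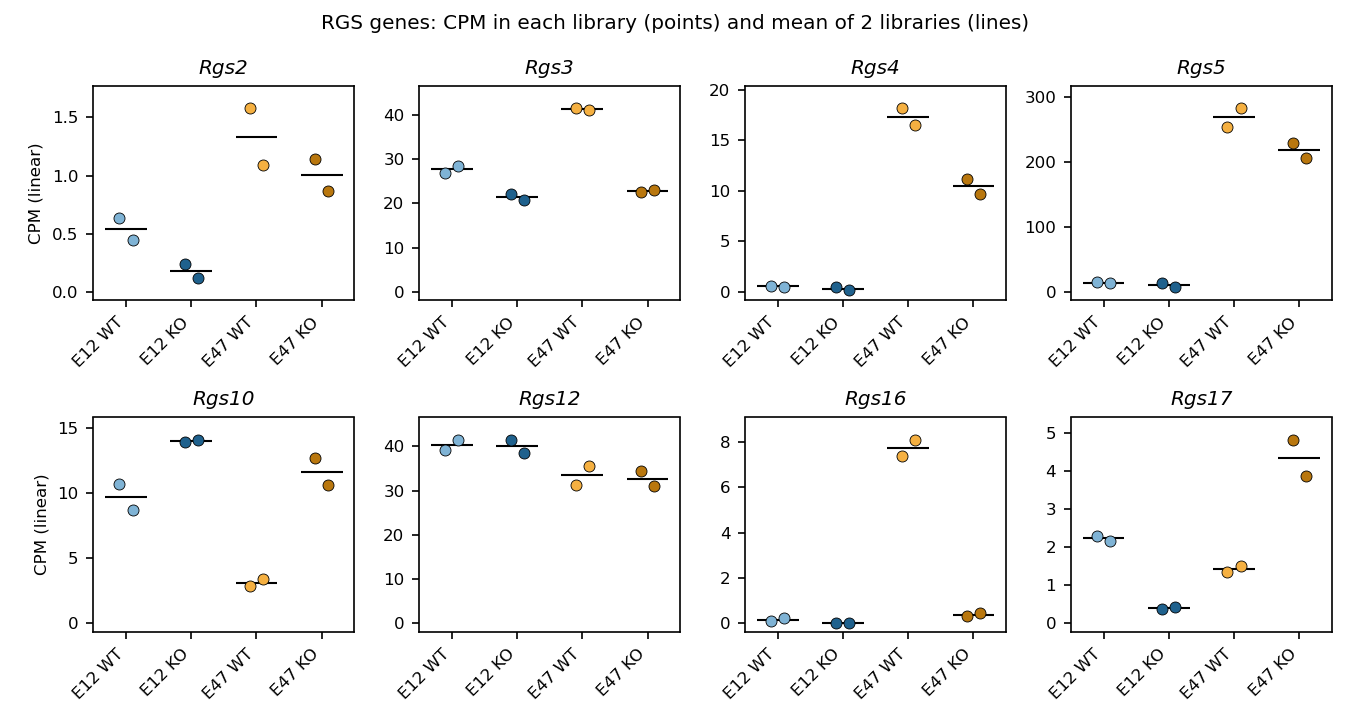
CPM of 8 RGS genes in each library (points, linear axes that differ between panels) with the mean of the 2 libraries of a genotype (lines). Rgs4 and Rgs5 are high in both E47 genotypes, Rgs16 is high in E47 WT, and Rgs17 is lowest in E12 KO and highest in E47 KO.

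Rgs5, an inhibitor of Gq and Gi signalling in the vessel wall, stood at 15.5 and 13.1 CPM in the E12 WT libraries, 13.2 and 7.75 in E12 KO, 254 and 283 in E47 WT, and 230 and 206 in E47 KO. The E12 and the E47 ranges were far apart, and the E12 WT and E12 KO libraries overlapped. E12 WT was lower than E47 WT by 4.23 on the log2 scale (SE 0.154, edgeR quasi-likelihood test, Benjamini-Hochberg adjusted p = 4.6e-12). E12 KO was lower than E47 KO by 4.36 (SE 0.156, adjusted p = 8.4e-12). Neither knockout changed Rgs5 past the threshold of 0.05. E12 KO stood at -0.43 on the log2 scale against its wild type (SE 0.182, adjusted p = 0.068) and E47 KO at -0.30 (SE 0.122, adjusted p = 0.0504). Both lay near the threshold and depended on the settings. In E12 KO the second library was the low one: without E12 KO replicate 1 the change was -0.88 (adjusted p = 5.2e-04), and without E12 KO replicate 2 it was -0.11 (adjusted p = 0.59). Without E12 WT replicate 2 it was -0.54 (adjusted p = 0.025). The E47 change passed with relative log expression scaling (-0.31, adjusted p = 0.040) and when only the 4 E47 libraries were fitted (-0.29, adjusted p = 0.0017), and in DESeq2 its adjusted p was 0.36.

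Rgs4, another R4 member that acts on Gi and Gq, was at 0.574 and 0.523 CPM in E12 WT, 0.483 and 0.180 in E12 KO, 18.2 and 16.5 in E47 WT, and 11.2 and 9.69 in E47 KO. The E12 libraries held only 9, 7, 10 and 3 counts of it, and none reached a level near those of the E47 libraries. E12 WT was lower than E47 WT by 4.95 on the log2 scale (SE 0.237, adjusted p = 1.2e-10), and E12 KO was lower than E47 KO by 4.89 (SE 0.265, adjusted p = 8.4e-10). Within the E47 cells Rgs4 fell in the knockout by 0.71 (SE 0.130, adjusted p = 3.2e-04), and the libraries did not overlap. The change in E12 KO was -0.65 (SE 0.533, adjusted p = 0.34), a difference not detectable at 16 counts in the wild type and 13 in the knockout. It was -1.57 (adjusted p = 0.11) without E12 KO replicate 1 and -0.18 (adjusted p = 0.83) without E12 KO replicate 2. The test of the difference between the 2 knockout changes gave 0.06 (adjusted p = 0.96).

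The endothelial markers summed to at most 7.28 CPM in E47 KO. In that genotype Rgs5 was 15.3 times and Rgs4 19.1 times the E12 WT mean, and both differences passed the test (adjusted p = 5.1e-11 and 6.7e-09). The 9 pericyte markers without Rgs5 summed to between 973 and 1113 CPM in E12 WT, 725 and 764 in E12 KO, 1447 and 1527 in E47 WT, and 1209 and 1363 in E47 KO. Between the wild types 6 of the 8 pericyte markers tested were lower in E12 WT and 1 was higher. Abcc9 and Kcnj8, the subunits of a potassium channel of pericytes, respectively held 4 and 1 counts over both libraries of E12 WT, 0 and 0 in E12 KO, 74 and 71 in E47 WT, and 10 and 14 in E47 KO. Higd1b, a further pericyte marker, had 1 count in all. The 10 smooth muscle markers summed to between 2121 and 2180 CPM in E12 WT and between 4327 and 4579 in E47 WT, with 2397 to 2438 in E47 KO. The part of these cell type differences in the levels of Rgs4 and Rgs5 was not tested.

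Rgs16 is an R4 member whose transcript is inducible in many cells. It had 103 and 208 counts in the E47 WT libraries, 6 and 7 in E47 KO, 2 and 3 in E12 WT and 0 and 0 in E12 KO. In CPM these were 7.38 and 8.11, then 0.312 and 0.468, then 0.128 and 0.224. The E47 WT libraries alone were clearly above the limit of 3 counts. Rgs16 fell in the E47 KO by 4.33 on the log2 scale (SE 0.290, adjusted p = 2.2e-08), a ratio of means of 19.9. E12 WT was lower than E47 WT by 5.44 (SE 0.355, adjusted p = 1.1e-08). E12 KO held 0 counts, and from counting error alone its ratio to E47 WT, E47 KO and E12 WT had upper 95% limits of 0.0126, 0.300 and 0.848. Folds were computed with 3 counts over both libraries in place of 0, the other count being taken as exact. E12 KO was then 97.8-fold lower than E47 WT, 4.73-fold lower than E47 KO and 2.14-fold lower than E12 WT. That last comparison passed the test (adjusted p = 0.023) on 5 counts against 0, and did not pass without E12 WT replicate 2 (adjusted p = 0.081), E12 KO replicate 1 (0.097) or E12 KO replicate 2 (0.072). The endothelial markers moved with Rgs16, since the only libraries high in it were also those with the high endothelial sum. All 9 endothelial markers tested were lower in E47 KO than in E47 WT. Smooth muscle markers moved the same way, with 9 of 10 lower in E47 KO, and the part of either in the fall of Rgs16 was not tested. Exons of Rgs16 overlap those of Gm28513 over 10.1% of their length, and without strand the reads of the 2 genes cannot be told apart there.

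Rgs4, Rgs5 and Rgs16 all lie on mouse chromosome 1 in GRCm38 (GENCODE M21). Rgs5 is at chr1:169655501-169695813 on the plus strand and Rgs4 at chr1:169741477-169747642 on the minus strand, 45663 bp apart with no other protein-coding gene between them. Rgs16 is at chr1:153740349-153745468 on the plus strand, with Rgs8 as its nearest coding neighbour at 40025 bp. Since E12 and E47 bind E-boxes, the 250 bases before the annotated start of these 3 genes are shown, from the RefSeq annotation of GRCm38.p6. They are chr1:169655251-169655500 (plus strand) for Rgs5, chr1:169747643-169747892 (minus strand) for Rgs4 and chr1:153740103-153740352 (plus strand) for Rgs16, each read 5′ to 3′ on the gene's own strand, with matches to the E-box core CANNTG in capitals.
Rgs5: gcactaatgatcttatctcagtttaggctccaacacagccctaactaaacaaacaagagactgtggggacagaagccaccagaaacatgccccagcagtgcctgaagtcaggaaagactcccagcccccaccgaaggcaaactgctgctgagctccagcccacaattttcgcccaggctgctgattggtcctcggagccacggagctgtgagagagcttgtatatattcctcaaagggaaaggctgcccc
Rgs4: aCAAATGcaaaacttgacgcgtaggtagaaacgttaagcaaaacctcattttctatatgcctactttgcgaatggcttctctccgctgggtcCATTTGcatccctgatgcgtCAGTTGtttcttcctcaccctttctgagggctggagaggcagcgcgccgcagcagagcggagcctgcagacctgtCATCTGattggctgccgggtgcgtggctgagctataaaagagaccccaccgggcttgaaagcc
Rgs16: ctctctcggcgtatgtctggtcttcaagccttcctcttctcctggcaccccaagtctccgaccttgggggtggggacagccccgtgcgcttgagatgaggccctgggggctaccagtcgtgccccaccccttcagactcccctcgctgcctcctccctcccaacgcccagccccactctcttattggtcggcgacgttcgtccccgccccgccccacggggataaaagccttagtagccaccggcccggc
The window of Rgs4 held 4 matches to CANNTG and those of Rgs5 and Rgs16 held none. CANNTG reads the same on both strands. Of the 10 genes, 9 had an entry, with 11 windows in all, and 4 of these windows held a match, those of Rgs3, Rgs4, Rgs7 and Rgs12. For comparison, 66.2% of all 32851 mouse windows of the same length held one. The core CAGCTG was in 13% of all windows, and CAGGTG or CACCTG in 17.2%. A match describes letters in the window and is not evidence of binding.

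Rgs17, an RZ member, was the gene whose change had opposite signs in the 2 knockouts. It stood at 2.30 and 2.17 CPM in E12 WT, 0.386 and 0.421 in E12 KO, 1.36 and 1.52 in E47 WT, and 4.83 and 3.88 in E47 KO. No genotype overlapped another, with the order E47 KO, E12 WT, E47 WT and E12 KO. Rgs17 fell in E12 KO by 2.46 on the log2 scale (SE 0.353, adjusted p = 4.4e-05) and rose in E47 KO by 1.58 (SE 0.231, adjusted p = 3.9e-05). The difference between the 2 changes was -4.04 (SE 0.420, adjusted p = 1.7e-06). The 2 wild types were 0.61 apart on the log2 scale, E12 WT being higher, which did not pass (adjusted p = 0.066), whereas between the knockouts E12 KO was lower by 3.43 (SE 0.302, adjusted p = 2.1e-07). The mesothelial markers moved in the same directions: of 7 tested, 5 fell and 2 rose in E12 KO (median -1.13), and 6 rose and 1 fell in E47 KO (median 3.48). Their sum was between 1474 and 1584 CPM in E12 WT, 874 and 894 in E12 KO, 205 and 222 in E47 WT, and 398 and 412 in E47 KO, with Wt1 at 0 in E47 WT. Myocd, a coactivator of smooth muscle genes named here after its values were seen, averaged 11.3, 1.65, 4.90 and 12.1 CPM in the same genotypes, the order of Rgs17. Among the 10 smooth muscle markers, Myocd alone rose in E47 KO and 9 fell. In E12 KO 5 of the 10 fell, Myocd among them, and 3 rose. The part of Myocd or of the mesothelial markers in the changes of Rgs17 was not tested. These levels of Rgs17 are low: E12 KO held 15 counts in its 2 libraries and E47 KO 151.

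Rgs10, a small R12 member known for its part in immune cells, stood at 10.7 and 8.67 CPM in E12 WT, 13.9 and 14.1 in E12 KO, 2.87 and 3.39 in E47 WT, and 12.7 and 10.6 in E47 KO. The E47 WT libraries were the low ones, below all 6 others. Rgs10 rose in E12 KO by 0.53 (SE 0.135, adjusted p = 0.0049) and in E47 KO by 1.87 (SE 0.162, adjusted p = 1.7e-07), and the difference of -1.34 between these changes passed its test (SE 0.215, adjusted p = 1.2e-04). E12 WT was higher than E47 WT by 1.60 (SE 0.171, adjusted p = 1.3e-06), while the knockouts differed by 0.26 (adjusted p = 0.10). E47 KO was not called different from E12 WT (0.27, adjusted p = 0.15). The endothelial sum moved the opposite way to Rgs10 in the E47 cells, and its part was not tested. The macrophage markers, whose cells are rich in Rgs10, summed to between 12.2 and 12.3 CPM in E12 WT, 12.4 and 12.6 in E12 KO, 15.3 and 16.4 in E47 WT, and 11.4 and 11.6 in E47 KO. Of 4 macrophage markers tested between the wild types, Lyz2 was lower in E12 WT and Cd68 and Cd14 were higher in E12 WT.

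Rgs3, an R4 member with long and short forms, stood at 26.8 and 28.5 CPM in E12 WT, 22.0 and 20.8 in E12 KO, 41.5 and 41.1 in E47 WT, and 22.5 and 23.0 in E47 KO. In both pairs the knockout libraries lay below the wild-type libraries. Rgs3 fell in E12 KO by 0.37 (SE 0.0838, adjusted p = 0.0023) and in E47 KO by 0.86 (SE 0.0790, adjusted p = 3.3e-07). The difference between the changes was 0.50 (SE 0.115, adjusted p = 0.0024), and E12 WT was lower than E47 WT by 0.58 (SE 0.0787, adjusted p = 1.7e-05). The 2 knockouts differed by -0.09 (adjusted p = 0.42). Rgs3 was thus highest in E47 WT. The sums of the endothelial, smooth muscle, pericyte and macrophage markers were also highest there. Of the macrophage markers tested, only Lyz2 was called higher in E47 WT than in E12 WT, while Cd68 and Cd14 were called lower. The part of these marker lists in the level of Rgs3 was not tested.

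Rgs12, the large R12 member with several signalling domains, stood at 39.2 and 41.3 CPM in E12 WT, 41.5 and 38.5 in E12 KO, 31.3 and 35.5 in E47 WT, and 34.3 and 31.1 in E47 KO. Each knockout overlapped its own wild type, with log2 changes of 0.00 (adjusted p = 0.97) and -0.04 (adjusted p = 0.75). The E12 cells were above the E47 cells by 0.26 between the wild types (SE 0.0873, adjusted p = 0.021) and by 0.29 between the knockouts (adjusted p = 0.011). The first of these calls was lost in DESeq2 and without E12 WT replicate 2 or E47 WT replicate 1, and the second without E12 KO replicate 1 or E47 KO replicate 2. Exons of Rgs12 overlap Gm43791 over 5.5% of their length.

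Rgs2, an R4 member selective for Gq whose loss raises blood pressure in mice, stood at 0.638 and 0.448 CPM in E12 WT, 0.241 and 0.120 in E12 KO, 1.58 and 1.09 in E47 WT, and 1.14 and 0.869 in E47 KO. These are 10, 6, 5, 2, 22, 28, 22 and 13 counts. All 4 E47 libraries lay above all 4 E12 libraries. The change in E12 KO was -1.52 (SE 0.621, adjusted p = 0.058) and in E47 KO -0.32 (SE 0.348, adjusted p = 0.46), and neither passed. E12 WT was lower than E47 WT by 1.21 (SE 0.415, adjusted p = 0.023), which was lost in DESeq2 and without E12 WT replicate 1, E12 WT replicate 2 or E47 WT replicate 1. E12 KO was lower than E47 KO by 2.40 (SE 0.524, adjusted p = 0.0013). Rgs7, the brain-enriched R7 member, had 2 and 1 counts in the E47 WT libraries and 0 elsewhere. Rgs14, an R12 member, was at 0 in all 8 libraries. Neither was tested.

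**Figure D3:**
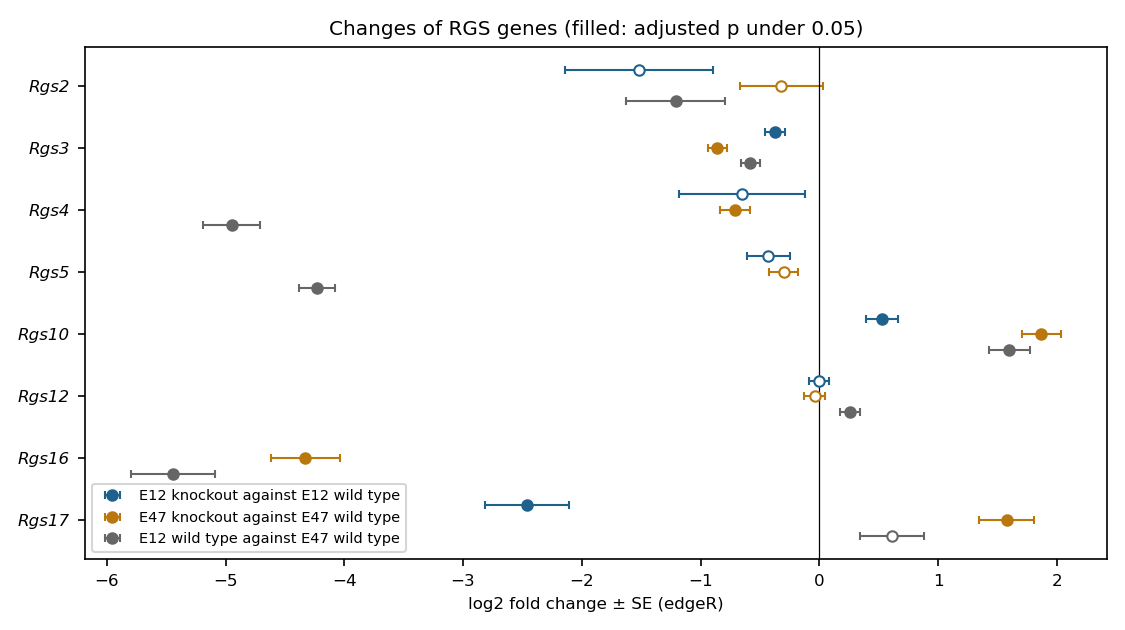
Log2 fold changes with standard errors from edgeR for each RGS gene in 3 comparisons (filled points, adjusted p under 0.05). The E12 KO point of Rgs16 is not drawn because that genotype held 0 counts. Rgs17 lies at -2.46 in E12 KO and 1.58 in E47 KO, and the comparison of the wild types puts Rgs4 and Rgs5 at -4.95 and -4.23.

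Of the 10 genes, 8 had enough counts to be tested. In E12 KO against E12 WT, 4 of these were called, 1 higher and 3 lower, where 46.4% of all genes tested were called (21.9% higher and 24.5% lower). In E47 KO against E47 WT, 5 were called, 2 higher and 3 lower, where 55.2% of all genes were (27.7% and 27.5%). Between the wild types 7 were called, 2 higher and 5 lower in E12 WT, where 55.4% of all genes were (27.8% and 27.6%). Of the 8 tested, 5 were called and exceeded 2-fold, as did 17.8% of all genes tested. Rgs16 passed the low-count filter only through E47 WT, where it was high. Rgs4 held at most 10 counts in any E12 library and passed through the E47 cells. Their large differences thus depend partly on the filter, and no conclusion about the family is drawn from this count. Between the knockouts 6 were called (52.9% of all genes). E47 KO and E12 WT differed in 5 (38.1%), and E12 KO and E47 WT in all 8 tested (65.0%). The difference of the 2 knockout changes was called for Rgs3, Rgs10 and Rgs17, against 48.6% of all genes. The counts for the 2 knockouts and for their difference lay near these shares and so say nothing particular about the family. These comparisons share genotypes, so they are not independent of each other. The median log2 change over the 8 genes was -0.54 in E12 KO and -0.31 in E47 KO, with -0.01 and 0.01 over all genes tested.

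Per length, the genes can be set beside each other only roughly, because the length is that of all annotated exons of a gene together. It was 10801 bp for Rgs3, 8487 bp for Rgs12 and 2230 bp for Rgs19. Genes with long and short forms may thus be set too low. In RPKM, which divides the CPM of a gene by its exon length in kilobases, the 21 RGS genes summed to 31.9 ± 1.08 (SD, n = 2) in E12 WT, 35.9 ± 1.35 in E12 KO, 89.7 ± 4.66 in E47 WT and 79.8 ± 6.28 in E47 KO. The gap between the E12 and E47 cells was in Rgs5: without it the sums were 28.7 ± 0.705, 33.6 ± 0.495, 30.7 ± 0.0698 and 31.8 ± 2.57. Its own level was 3.14 RPKM in E12 WT, 2.31 in E12 KO, 59.0 in E47 WT and 48.0 in E47 KO. Rgs5 thus held 65.8% of the RGS sum in E47 WT and 60.2% in E47 KO, against 9.86% in E12 WT and 6.39% in E12 KO. In the E12 cells the most abundant RGS transcript per length was instead Rgs19, an RZ member outside the 10, with 44.9% of the sum in E12 WT and 49.5% in E12 KO. Next in E12 WT came Rgs10 at 5.65 RPKM, Rgs12 at 4.74, Rgs5 and then Rgs3 at 2.56. In E47 WT the genes after Rgs5 and Rgs19 were Rgs4 at 5.59 RPKM, Rgs12 at 3.93, Rgs3 at 3.83 and Rgs16 at 3.31. By subfamily, R4 genes summed to 6.11 RPKM in E12 WT, 4.44 in E12 KO, 72.1 in E47 WT and 54.0 in E47 KO, while R7 genes stayed under 1 RPKM in each genotype, at 0.774, 0.713, 0.522 and 0.890. R12 genes gave 10.4, 12.9, 5.76 and 10.6 RPKM in the same order, lowest in E47 WT.

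**Figure D4:**
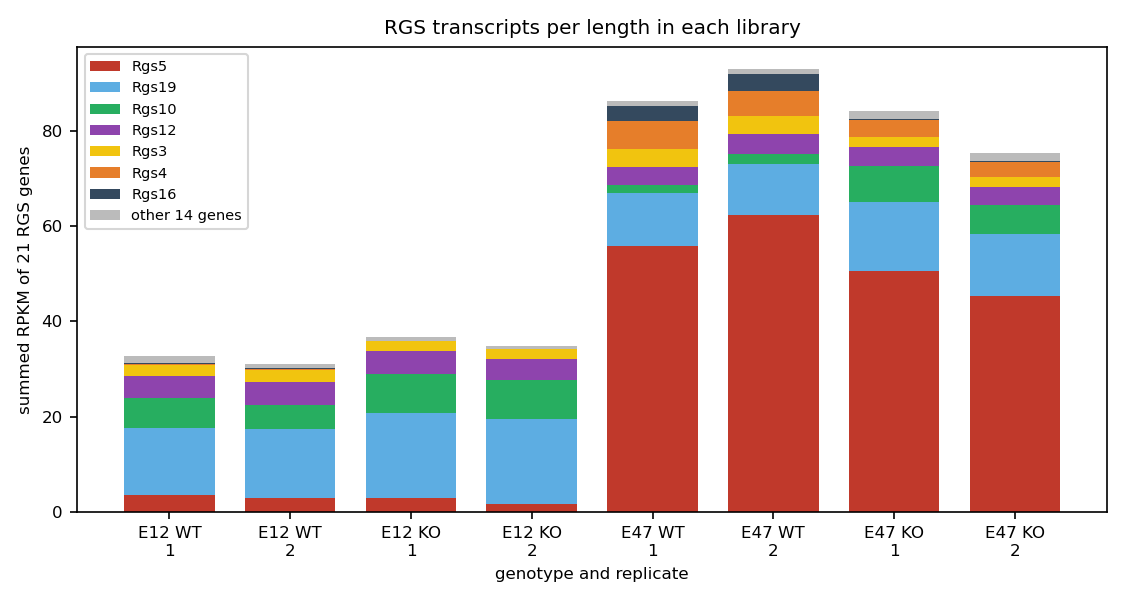
Summed RPKM of 21 RGS genes in each library, stacked by gene from 0. Rgs5 makes up most of the sum in the 4 E47 libraries and a small part in the 4 E12 libraries, where Rgs19 is the largest.

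Of the 11 other RGS genes, 7 had a count and 2 had enough to be tested. Rgs19 averaged 31.9 CPM in E12 WT, 39.6 in E12 KO, 24.7 in E47 WT and 30.7 in E47 KO, and it rose in both knockouts, by 0.31 (adjusted p = 0.0050) and 0.32 (adjusted p = 0.0043). Rgs11, an R7 member, averaged 3.17, 2.98, 2.10 and 3.68 CPM and rose in E47 KO by 0.76 (adjusted p = 0.020), with -0.11 (adjusted p = 0.77) in E12 KO. Rgs6, Rgs8, Rgs9, Rgs20 and Rgs22 had at most 4 counts in a genotype, and Rgs1, Rgs13, Rgs18 and Rgs21 were at 0 throughout. Gnb5, the partner of the R7 proteins, fell in E12 KO by 0.36 (adjusted p = 0.0074) and rose in E47 KO by 0.30 (adjusted p = 0.014). Rgs7bp, which anchors R7 complexes to the membrane, had 9 and 12 counts in E47 WT and 0 elsewhere. These 2 partner genes were named after their values were seen.

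The G alpha subunits are the proteins that RGS proteins act on. Of 14 G alpha genes tested, 2 rose and 6 fell in E12 KO, and 1 rose and 6 fell in E47 KO, with median log2 changes of -0.07 and -0.18. The numbers called lay near the background shares of 46.4% and 55.2% of all genes tested. Gna14, of the Gq class, averaged 4.39 CPM in E12 WT, 0.241 in E12 KO, 0.654 in E47 WT and 11.8 in E47 KO. It thus fell in E12 KO, by 4.13, and rose in E47 KO, by 4.16, with the signs of Rgs17. Gng4, a gamma subunit, did likewise, averaging 2.76, 0.108, 0.130 and 2.95 CPM. Gnaq, the widely expressed Gq subunit, fell in both, by 0.37 and 1.01, and Gnao1, a Gi-class subunit, rose in E12 KO by 3.15 and fell in E47 KO by 0.59. Of the 10 beta and gamma genes tested, 3 rose and 5 fell in E12 KO and 3 rose and 4 fell in E47 KO, with medians of -0.40 and -0.17.

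Among the effectors, 11 phospholipase C beta and adenylyl cyclase genes were tested. In E12 KO 2 rose and 6 fell, and in E47 KO none rose and 8 fell, with medians of -0.44 and -0.54. Adcy5, a cyclase inhibited by Gi, averaged 47.8, 2.66, 28.6 and 8.93 CPM in E12 WT, E12 KO, E47 WT and E47 KO, and it fell in both knockouts, by 4.19 and 1.69. Of 21 receptors tested that couple to Gq or Gi, 1 rose and 8 fell in E12 KO, and 8 rose and 11 fell in E47 KO. The medians were -1.07 (-0.84 with genes of 3 counts or fewer at their bounds) and -0.30. Adra1b, an adrenergic receptor of the Gq class, averaged 10.8, 1.13, 17.7 and 26.6 CPM, falling in E12 KO and rising in E47 KO. S1pr1, a Gi-coupled sphingosine 1-phosphate receptor abundant in endothelium, averaged 0.714, 0.228, 19.8 and 0.809 CPM, high in the same genotype as Rgs16 and the endothelial markers. Of 8 Gs-coupled receptors, 1 rose and 4 fell in E12 KO, and 3 rose and 3 fell in E47 KO, with medians of -0.84 and -0.08. For comparison with these 3 lists, 46.4% of all genes tested were called in E12 KO and 55.2% in E47 KO.

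Proteins that share the work of ending receptor signals were also counted. Of 6 receptor kinases and arrestins tested, 2 rose and 2 fell in each knockout. Grk5 fell in both, by 1.10 and 0.29, and Arrb2, an arrestin, rose in E47 KO by 1.44 (adjusted p = 1.7e-04). Of the 3 RhoGEFs with an RGS-homology domain, Arhgef11 rose in E12 KO by 0.36 (adjusted p = 0.0055) and fell in E47 KO by 0.64 (adjusted p = 3.3e-05), and Arhgef12 fell in E47 KO by 0.59. Of 6 proteins that bind or anchor RGS proteins or G alpha, 2 rose and none fell in E12 KO, and none rose and 4 fell in E47 KO. The share of all genes tested that were called in these comparisons was 46.4% and 55.2%.

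**Figure D5:**
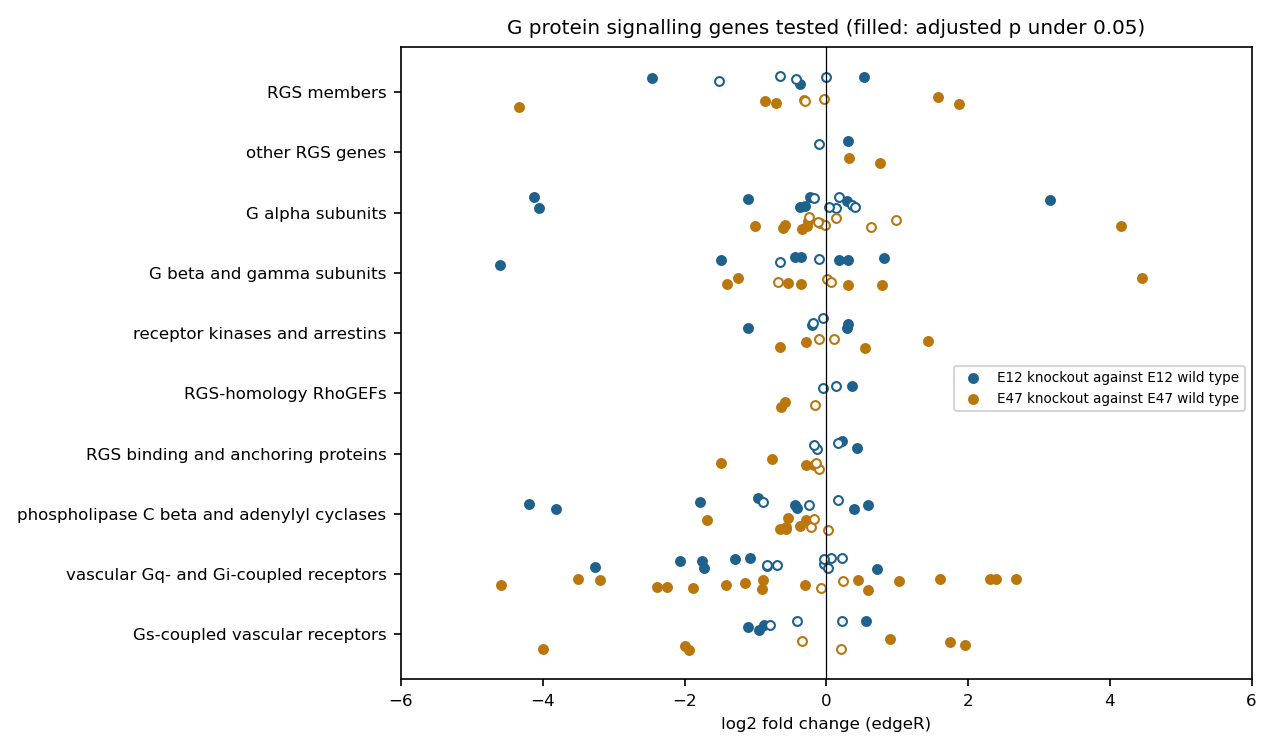
Log2 fold changes (edgeR) of the tested genes of each list in the 2 knockout comparisons (filled points, adjusted p under 0.05), with 1 point per gene. Genes with 3 counts or fewer in a genotype of the comparison are not drawn. Gna14 and Gng4 lie at -4.13 and -4.61 in E12 KO and at 4.16 and 4.45 in E47 KO. Gnal is a further G alpha point at -4.05 in E12 KO and lies at -0.61 in E47 KO.

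For each RGS gene whose genotype means spanned over 1 on the log2 scale, the genes with the most similar pattern over the 8 libraries were found by the root mean square (RMS) difference of centred log2 CPM among 11139 candidates, as a description with no test. Rgs5 was closest to Pcdhgb5 (RMS 0.377), Megf10 (0.392) and Mustn1 (0.492), and Rgs4 to Megf10 (0.383), Pcdhgb5 (0.432) and Cd34 (0.597). Few genes came that near: 4 lay within 0.5 of Rgs5 and 2 within 0.5 of Rgs4. The count of Pcdhgb5 is uncertain because its locus shares exons with its neighbours. Rgs16 was closest to Actg2 (0.316), Calcrl (0.327) and Tmem82 (0.396), with 10 genes within 0.5. Rgs17 was closest to Hecw1, Sned1 and Ripk3, with 38 genes within 0.5. Rgs10 was closest to Acaa2, Crybg1 and Tnfsf13, with 357 within 0.5, and Rgs2 to Azin2, Gpr162 and Cbr3, with 209. The log2 CPM used a prior count of 2, which shrinks differences at few counts. The matches of low genes such as Rgs2, Rgs4 and Rgs16, and their numbers within 0.5, depend on it.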

How the data were processed

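RNA of mouse aortic smooth muscle cells was sequenced as 8 unstranded polyA libraries, per the labels' protocols. FastQC, HISAT, featureCounts and GRCm38 (mm10) are named in the submitters' processing notes, with no versions, settings or annotation (not given in the sources used here). Each gene has a deposited raw count in every library, a whole number without normalization. Rows with a symbol turned into a date held 0.153% to 0.198% of a library's counts and stayed in the totals. Positions and exon lengths came from GENCODE M21 and promoter windows from RefSeq.

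From these counts, edgeR 4.0.16 in R 4.3.3 kept 13992 genes by its low-count filter, scaled libraries by TMM, fitted the 4 genotypes with 4 residual degrees of freedom and ran the quasi-likelihood F test, with Benjamini-Hochberg adjustment over all genes tested and a threshold of 0.05. Standard errors were derived from the F statistic. CPM use TMM-scaled library sizes, and RPKM divide these by exon length. A limit of 3 counts stands for a count of 0, for counting error only, with the other count taken as exact. The test recovered large known changes placed in E12 KO in simulated data. The simulation gave all genes the same spread, so it does not show recovery at the gene-by-gene spread of the real libraries. Alternatives were DESeq2 1.42.0, other scalings and filters, fits of fewer libraries and leaving out each library. The genes, gene lists and marker lists were chosen with earlier results of these data known. All 10 genes are named, with every other RGS gene that had a count, up to 4 genes per pathway list with the lowest p, set marker genes, Tcf3 and the 3 most similar genes.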

Additional observations from a re-analysis of the deposited data

Results flagged for a closer look

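Rgs3, Rgs10 and Rgs17 responded differently in the 2 knockouts by the test of the difference itself (edgeR, adjusted over all genes tested, where 48.6% of genes passed). For Rgs3 the change in E12 KO minus that in E47 KO was 0.50 on the log2 scale (adjusted p = 0.0024), both changes being falls. For Rgs10 it was -1.34 (adjusted p = 1.2e-04), both being rises. For Rgs17 it was -4.04 (adjusted p = 1.7e-06), a fall in E12 KO and a rise in E47 KO.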

How the results depend on the processing

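Of 38 calls among the 10 genes, 30 passed under every setting that gave a value. The other 8 were Rgs2 between the wild types, Rgs3 and Rgs17 between E47 KO and E12 WT, Rgs12 in all 4 comparisons of E12 with E47 cells, and Rgs16 in E12 KO. Those of Rgs3 and Rgs17 were lost without E47 KO replicate 1, and that of Rgs3 also without E12 WT replicate 2, in DESeq2 and with no low-count filter. The number of RGS genes called between E47 KO and E12 WT was 3 to 5 when single libraries were left out, against 5 with all. Some changes that were not called crossed 0, all of them of Rgs12 or in the difference between the knockouts. Rgs12 in E12 KO was 0.01 with no low-count filter and -0.05 to 0.05 with a library left out. In E47 KO it was 0.03 with upper quartile scaling and -0.12 to 0.07 with a library left out. The difference between the knockouts was -0.02 for Rgs4 and -0.05 for Rgs12 with upper quartile scaling, and 0.23 for Rgs16 in DESeq2. With a library left out it ran from -0.86 to 0.52 for Rgs4, -0.07 to 0.11 for Rgs12, -0.71 to 0.05 for Rgs16 and -0.59 to 0.18 for Rgs5. The cause was not tested. In an alternative chosen after seeing the data, without both E47 WT libraries, Rgs16 was not tested and the comparisons of E12 KO with E12 WT, E12 KO with E47 KO and E47 KO with E12 WT called 3, 5 and 5 genes. DESeq2 gave no adjusted p for 2 Rgs16 results. No paired analysis was possible because the labels number the libraries 1 to 8 and share no replicate number between genotypes. With 2 libraries per genotype and under 30 counts of Rgs2, Rgs4 and Rgs16 in several libraries, changes of these genes may be missed, including some over 2-fold. Rgs2 in E12 KO was 2.87-fold lower than in E12 WT and was not called (edgeR, adjusted p = 0.058).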
